A study of Mus musculus with 57 samples.

Results

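The comparison described here set a dissection that holds the preoptic area together with the bed nucleus of the stria terminalis (BNST/POA) against the striatum of the same adult mouse groups, at 60 days of age. Its members were the day 60 arrays, chosen by the age and region in their labels: 14 arrays of the BNST/POA and 13 of the striatum, 27 of the 57 expression arrays in the series. Each array was hybridized with RNA from a pool of 3 C57BL/6J mice. The animals formed 3 groups in each region. XX+T females received testosterone propionate at birth and gave 4 BNST/POA and 4 striatal arrays. XY males received oil and gave 5 BNST/POA and 4 striatal arrays, and XX females received oil and gave 5 arrays of each region. All animals of the 3 groups were gonadectomized before puberty and carried testosterone implants afterwards, so neither region was sampled from intact adults. The BNST/POA was taken below the lateral ventricle and medial to the internal capsule, and the striatum from the tissue bounded by the external and internal capsules and the anterior commissure. Both pieces also hold fibre tracts and glia. A litter received either testosterone or oil, and litter cannot be told apart from treatment in XX+T females. The 3 groups were weighted equally in the regional difference, which is given throughout as BNST/POA minus striatum on the log2 scale. The series also holds 15 BNST/POA and 15 striatal arrays of mice at 4 days of age. These came from XX, XX+T and XY mice injected at birth in the same way but not gonadectomized. They entered the normalization, the probe filter and the comparison of ages.

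The BNST and the preoptic area belong to the extended amygdala and the rostral hypothalamus. They hold many small populations of neurons that are told apart by the neuropeptide they release, and they are known for the control of reproductive behaviour, gonadotropin release, thermoregulation and stress responses. Most neurons of the striatum, in contrast, are GABAergic medium spiny projection neurons that receive dopamine from the midbrain and glutamate from cortex and thalamus. Their response to dopamine runs through D1 or D2 receptors and cyclic AMP, and a small number of cholinergic and GABAergic interneurons regulate them.

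The genes at the opposite ends of the comparison include Oxt and Avp, the precursors of oxytocin and vasopressin, and Rarb, the retinoic acid receptor beta. The 250 bases before the annotated start of each are shown because Oxt and Rarb have the largest differences among the neuropeptide precursors and the striatal transcription factors, and Avp is the neighbour of Oxt, and the data bear on them only as transcript levels. Sequences are those of RefSeq for GRCm38.p6, read 5′ to 3′ on the strand of the gene. Oxt (chr2:130575919-130576168, plus strand) and Avp (chr2:130582589-130582838, minus strand) are neighbours on chromosome 2 in opposite orientation, with 6419 bases between their starts, and Rarb is on chromosome 14 (chr14:16575477-16575726, minus strand). In Oxt and Avp, capitals mark TGACCT on either strand, a half-site of nuclear receptors, and CATAAA on either strand, a TATA-like motif. In Rarb, capitals mark GTTCACNNNNNGTTCAC, a direct repeat of the kind bound by retinoic acid receptors. The Oxt window held TGACCT 2 times, at 185 to 180 and 166 to 161 bases before the start, and CATAAA at 27 to 22 bases. The Avp window held CATAAA at 14 to 9 bases and no TGACCT. The Rarb window held the repeat at 52 to 36 bases. None of these motifs overlap each other in the windows shown. Of all 32851 windows of that length, which can include several of 1 gene, 4607 held TGACCT, 3536 (10.8%) held CATAAA and 2 windows (0.00609%) held the repeat. A match describes these letters and is not evidence of binding.
Oxt: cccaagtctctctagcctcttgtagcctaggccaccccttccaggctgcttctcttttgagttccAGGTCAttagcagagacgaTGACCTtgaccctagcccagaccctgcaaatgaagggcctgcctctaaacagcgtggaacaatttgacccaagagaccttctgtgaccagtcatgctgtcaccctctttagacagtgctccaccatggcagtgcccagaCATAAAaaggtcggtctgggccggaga
Avp: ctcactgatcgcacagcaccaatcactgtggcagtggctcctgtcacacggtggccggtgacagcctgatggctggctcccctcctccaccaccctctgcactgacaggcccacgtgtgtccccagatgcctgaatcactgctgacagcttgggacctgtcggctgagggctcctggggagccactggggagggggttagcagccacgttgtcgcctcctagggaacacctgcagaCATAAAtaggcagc
Rarb: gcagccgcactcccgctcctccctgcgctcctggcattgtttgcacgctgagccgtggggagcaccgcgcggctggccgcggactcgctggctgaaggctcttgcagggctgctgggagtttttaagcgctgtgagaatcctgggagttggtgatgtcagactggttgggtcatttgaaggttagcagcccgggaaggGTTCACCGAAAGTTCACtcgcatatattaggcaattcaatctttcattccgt

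An array has no read depth, and the number of probes detected (detection p below 0.05 against the negative control beads) stands in its place. Between 11687 and 13350 probes were detected on the BNST/POA arrays, and between 11258 and 13895 on the striatal arrays. The most similar day 60 array of each of the 27 arrays was of its own region. The first principal component held 49.7% of the variance and separated the regions (95.3% of its variance lay between them), whereas the second held 32.2% and set apart 5 arrays, which are BNST/POA XX+T 5 and 6, BNST/POA XY 6 and striatal XX+T 3 and 6. These 5 arrays also had more detected probes (13014 to 13895) and a wider spread of raw log2 intensities (interquartile range 1.76 to 2.10) than the other 22, and 4 of them are of XX+T mice. Every result below was therefore also computed without them. The library labelled striatal XX+T pool 3 went against its label. It carried the Y-linked transcript Eif2s3y at a log2 intensity of 8.30, against 8.73 to 9.24 on the 4 striatal XY arrays and 6.86 to 7.10 on the other 8 striatal arrays of XX and XX+T mice. Xist, the transcript of the inactive X chromosome, was not detected on it (7.12, against 7.53 to 9.47 on those 8 arrays). The other 26 arrays carried Eif2s3y where labelled XY and Xist where labelled XX or XX+T. 

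**Figure D1:**
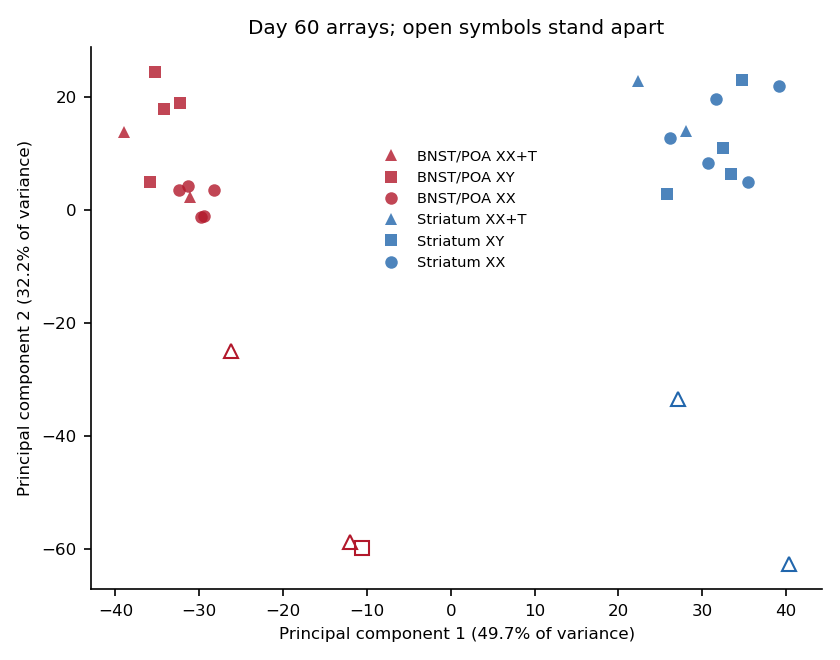
Each point is a day 60 array placed by its first and second principal components over all probes kept, without units beyond the variance shares on the axes, with colour for region and shape for group. The regions lie apart along the first component (49.7% of the variance), and the open symbols are the 5 arrays that lie low on the second (32.2%).

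The regions differed at most of the measured transcripts. Of 13731 probes, 7359 (53.6%) were called in limma at a Benjamini-Hochberg adjusted p below 0.05, and of these 3988 (29.0%) were higher and 3371 (24.6%) lower in the BNST/POA. The balance between the directions depends on the scaling. When arrays were instead only centred on their medians, 4822 probes were higher and 2118 lower, and the median difference over all probes was 0.07 in place of 0.01. On 1 probe per gene, 2633 of 9560 genes were higher in the BNST/POA (27.5%) and 2556 were lower (26.7%), with a median difference of -0.0035 over all genes. Differences of at least 1 log2 unit were fewer, with 242 genes higher (2.53%) and 343 lower (3.59%). The ranges of the 14 and 13 arrays did not overlap in 403 genes that were higher (4.22%) and 487 that were lower in the BNST/POA (5.09%). Without the 5 arrays that stand apart 8697 probes were called, among them 7116 of the 7359, each in the same direction. With normexp background correction, the log2 differences of 39 of the 136 named genes were more than 1.5 times as large, among them those of Sytl4 and Nmu. The counts of list members below are to be read against these shares of all genes. Probes were kept when detected on at least 20 of the 57 arrays. A gene detected on few arrays of 1 region may therefore have been kept only through arrays of the other. Its direction is then no separate support for a list. An array of tissue cannot separate fewer cells of a type from less RNA per cell. Each array is a pool of its own, and whether pools of the 2 regions hold the same animals is not stated, so the p-values measure the spread between pools.

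The 12 genes with the largest differences towards the BNST/POA were led by peptide precursors. Oxt had a log2 intensity of 13.13 to 14.11 (median 13.58) in the BNST/POA and of 7.14 to 8.99 (median 7.69) in the striatum, a difference of 5.76 ± 0.15 (SE) or 54.3-fold (limma adjusted p = 3.13e-20). It was detected on all 14 BNST/POA arrays and on 10 of the 13 striatal arrays, and the lowest array of the BNST/POA stood more than 4 log2 units above the highest of the striatum. Gal, the precursor of galanin, ranged from 12.12 to 12.82 (median 12.41) in the BNST/POA and from 7.60 to 9.27 (median 8.79) in the striatum, 13.5-fold higher (3.75 ± 0.13, adjusted p = 5.41e-18). Avp was 10.8-fold higher (3.44 ± 0.24, adjusted p = 1.15e-11), with 11.92 to 12.88 (median 12.51) against 7.18 to 11.00 (median 8.86). The ends of the striatal range of Avp were the array XX+T 4 at 11.00 and the library labelled XX+T 3 at 7.18, with 8.47 to 9.81 on the other 11. Trh, which encodes thyrotropin-releasing hormone, lay between 12.93 and 13.29 in the BNST/POA and between 8.79 and 11.08 in the striatum (2.93 ± 0.14). Cartpt, the precursor of the CART peptides, and Nmu, that of neuromedin U, both had fitted differences of 2.52 (SE 0.10 and 0.18). Nmu was not detected on any striatal array, so that it was at least 4.43-fold higher in the BNST/POA when the striatum is set to the lowest detectable signal (adjusted p = 1.40e-11).

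The other 6 of these genes encode no peptide hormone. Gpx3, a secreted glutathione peroxidase, was 12.6-fold higher in the BNST/POA (11.59 to 12.13, median 11.94, against 7.97 to 8.77, median 8.22 in the striatum), with the smallest standard error of the 12 (3.65 ± 0.07). Sytl4, which encodes granuphilin, a Rab27 effector on dense-core secretory granules, had a log2 intensity of 9.95 to 11.25 (median 10.78) in the BNST/POA and of 6.88 to 7.35 (median 7.06) in the striatum, where 1 of 13 arrays detected it. Its fitted difference of 3.63 ± 0.10 is thus set against a signal at background, and it ranged from 3.41 to 5.67 over the alternatives, the highest with normexp correction. Sytl4 also passed the detection filter only with the help of BNST/POA arrays. Calb2, the calcium-binding protein calretinin, was 9.49-fold higher (3.25 ± 0.13), and Cbln1, a secreted synaptic organizer, 7.05-fold (2.82 ± 0.15). Ngb, which encodes neuroglobin, was 6.72-fold higher (2.75 ± 0.10), and Tmem255a, which encodes a transmembrane protein, 6.62-fold (2.73 ± 0.15). The arrays of the regions did not overlap for any of the 12, as the rule for naming them required.

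Towards the striatum, genes listed as markers of medium spiny neurons held 7 of the 12 places. Scn4b, a beta subunit of voltage-gated sodium channels, had a log2 intensity of 7.36 to 8.74 (median 7.79) in the BNST/POA and of 12.38 to 14.08 (median 12.85) in the striatum, 35.1-fold lower in the BNST/POA (-5.13 ± 0.14, adjusted p = 7.33e-20). Ido1, which encodes the tryptophan-degrading enzyme indoleamine 2,3-dioxygenase 1, was 31.7-fold lower, with 7.58 to 8.31 (median 8.04) against 12.56 to 13.51 (median 13.07). Its difference of -4.99 ± 0.09 had the smallest adjusted p of all probes (8.31e-23). Ppp1r1b, which encodes DARPP-32, the phosphatase inhibitor through which dopamine and cyclic AMP signals are integrated, was 27.6-fold lower (8.75 to 10.06, median 9.31, against 13.38 to 14.91, median 14.12). Its 3 probes gave the same call. Itpka, a kinase of inositol trisphosphate, was 14.2-fold lower (-3.83 ± 0.08) and Rgs9, whose brain form limits D2 receptor signalling, 13.3-fold (-3.73 ± 0.11). Drd1, the D1 dopamine receptor, and Arpp21, a cyclic AMP-regulated phosphoprotein, were both 11.6-fold lower (-3.54 ± 0.12 and -3.54 ± 0.11). For Drd1 the BNST/POA arrays lay at 8.08 to 9.38 and the striatal arrays at 11.73 to 12.71, so that the transcript was detected in both regions with more than 2 log2 units between them. The remaining 5 genes lay between 9.09- and 9.58-fold lower. They were Hpca (hippocalcin, a calcium sensor), Gabrd (the delta subunit of extrasynaptic GABA-A receptors), Rarb, Actn2 (alpha-actinin 2, in dendritic spines) and Inf2 (a formin that acts on actin).

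**Figure D2:**
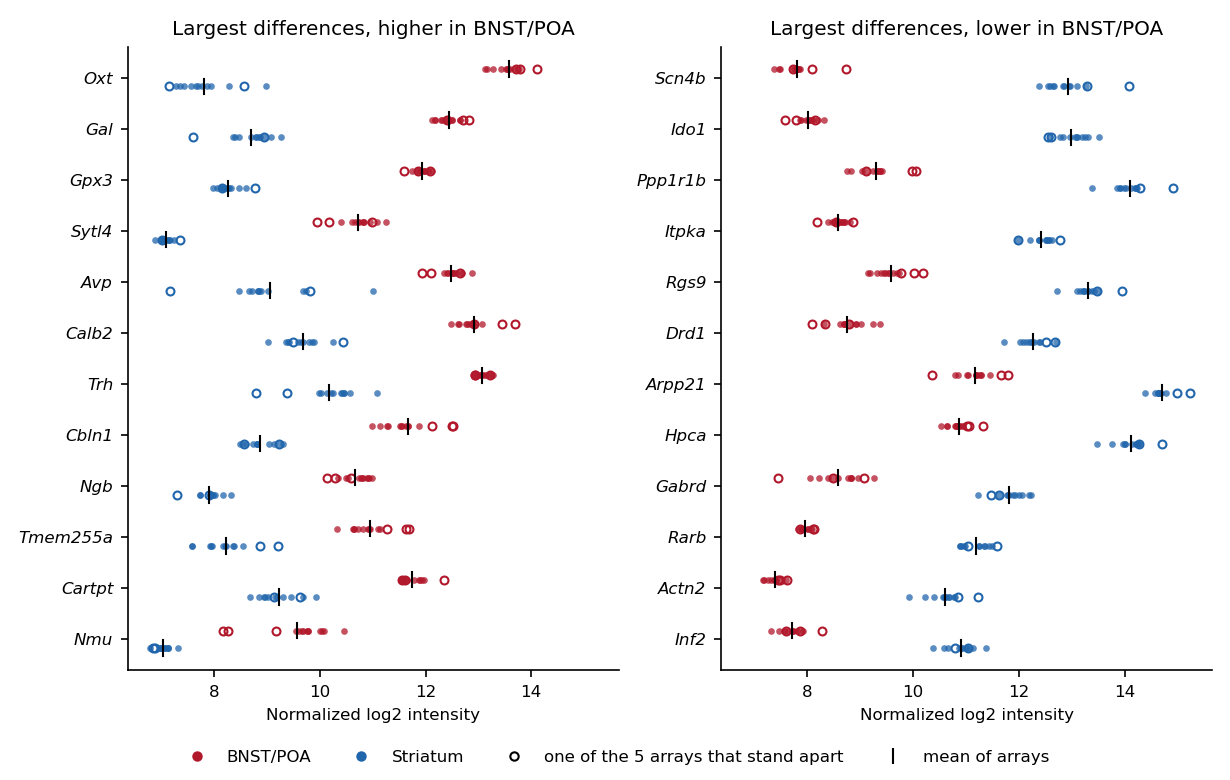
Normalized log2 intensity (horizontal axis) of the 12 genes with the largest differences in each direction, with a point for each of 14 BNST/POA arrays above 13 striatal arrays, open points for the 5 arrays that stand apart and a bar at the mean. For each gene the points of the regions do not overlap, including Oxt (13.13 to 14.11 against 7.14 to 8.99) and Scn4b (7.36 to 8.74 against 12.38 to 14.08).

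Neuropeptide precursors of the hypothalamus and extended amygdala were mostly higher in the BNST/POA. Of 26 listed, 19 had a probe kept, of which 16 were called higher and 2 lower, against 27.5% and 26.7% of all genes, with a median difference of 1.90 against -0.0035 over all genes. The arrays did not overlap for 12 of the 19, whereas 4.22% of all genes were higher and 5.09% lower without overlap. Beside the precursors above, Adcyap1 (PACAP, a peptide of the VIP family) was higher by 2.51 ± 0.07 and detected on 4 of 13 striatal arrays against all 14 of the BNST/POA. Differences between 1.44 and 1.96 were found for Ghrh (growth hormone-releasing hormone), Nms (neuromedin S), Vip (vasoactive intestinal peptide), Kiss1 (kisspeptin), Nts (neurotensin) and Grp (gastrin-releasing peptide). Kiss1 was detected on 2 and Grp on 1 of the striatal arrays. Oxt, Pmch, Nmu, Adcyap1, Kiss1 and Grp are among the members that passed the detection filter only with the help of BNST/POA arrays. Their direction is therefore no separate support for the list. Nmb, the neuromedin B precursor, was higher by 0.20 ± 0.06. Npy, the neuropeptide Y precursor, went the other way, with 9.07 to 10.28 (median 9.59) in the BNST/POA and 10.98 to 11.88 (median 11.59) in the striatum, 3.91-fold lower (-1.97 ± 0.10, adjusted p = 1.40e-14). Sst, the somatostatin precursor, was called lower (-0.13 ± 0.05), and this call was lost without the 5 arrays (-0.11, adjusted p = 0.075), with arrays centred on their medians (-0.0017), with normexp correction and when all 57 arrays shared the spread. Nmb lost its call with a fixed replicate block. Cck, the cholecystokinin precursor, was not called (-0.03 ± 0.16). The 2 measured precursors of striatal projection neurons were both lower in the BNST/POA without overlap, Tac1, the substance P precursor (-1.66 ± 0.12), and Pdyn, prodynorphin (-1.66 ± 0.13).

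Pmch and Hcrt, the precursors of melanin-concentrating hormone and of the orexins, are known from neurons of the lateral hypothalamus, and their levels differed widely between arrays. In the BNST/POA, Pmch ranged from 9.96 to 14.38 (median 11.83) and in the striatum from 7.78 to 13.50 (median 9.97), so that the regions overlapped despite a called difference of 1.99 ± 0.48 (adjusted p = 1.07e-03). Within groups, Pmch was called in XX+T (2.70, limma adjusted p = 0.026) but not in XY (1.85, 0.094) or XX (1.43, 0.16). No probe was called for a difference between groups. The 4 BNST/POA arrays of XX+T mice lay between 13.11 and 14.38 for Pmch, and the 5 XY arrays between 10.56 and 13.08. The 5 XX arrays lay between 9.96 and 13.16. In the striatum, XX+T 4 and XX+T 6 stood at 13.50 and 13.25 for Pmch, against 7.78 to 11.30 on the other 11 arrays. The same 2 striatal arrays were the highest for Hcrt (10.12 and 9.86, against 7.04 to 7.75 on the others) and for Oxt (8.99 and 8.57, against 7.14 to 8.28). Hcrt was called higher in the BNST/POA (1.22 ± 0.31). Without the 5 arrays both stayed called, as did Oxt and Avp.

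Of 36 receptors of peptide hormones and neuropeptides, 19 were measured, of which 15 were higher and 2 lower in the BNST/POA (median 0.45). Differences of at least 1 log2 unit were found in 2 of them. Avpr1a, the vasopressin 1a receptor, had 8.17 to 8.97 (median 8.57) in the BNST/POA and 6.94 to 7.38 (median 7.20) in the striatum, where no array detected it. It was therefore at least 2.27-fold higher (adjusted p = 3.04e-14). Hcrtr1, the orexin 1 receptor, was higher by 1.32 ± 0.08 and detected on 2 striatal arrays. Brs3, an orphan receptor of the bombesin family, was not detected in the striatum and was at least 1.59-fold higher. Avpr1a, Hcrtr1 and Brs3 passed the detection filter only with the help of BNST/POA arrays. The direction of these receptors is therefore no separate support for the list. Oprl1, the nociceptin receptor, was higher by 0.83 ± 0.09 without overlap, and Mc4r, the melanocortin 4 receptor of energy balance, by 0.72 ± 0.07. Tacr1, the substance P receptor, was lower (-0.44 ± 0.05), as was Crhr1, a receptor of corticotropin-releasing hormone (-0.16 ± 0.06), whose call was lost with arrays centred on their medians (-0.09) and with a fixed replicate block (adjusted p = 0.061). Cckbr (0.12 ± 0.15) and Crhr2 (-0.0042 ± 0.05) were not called, although Cckbr was with the fixed block (0.30). Of 11 granins and enzymes of prohormone processing 8 were measured, with 2 higher and 2 lower (median -0.21). These counts are near the shares of all genes (27.5% and 26.7%). The count of lower members depends on the arrays: without the 5 that stand apart 4 were lower, Chgb (-0.85) and Vgf (-0.38) being added, and with array weights 5. The Chgb call was also gained without BNST/POA XX+T 6, BNST/POA XY 6 or striatal XX+T 4. With the fixed block 1 was lower and the median was 0.0067. Scg2, secretogranin II of dense-core vesicles, was higher by 0.93 ± 0.10 and Pcsk1n, an inhibitor of a prohormone convertase, by 0.52 ± 0.13, whereas Pam, the peptide-amidating enzyme, and Chga, chromogranin A, were lower (-0.38 ± 0.09 and -0.37 ± 0.15). The other 2 probes of Chga did not give that call, which was also lost with arrays centred on their medians and without any single one of 16 of the 27 arrays.

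**Figure D3:**
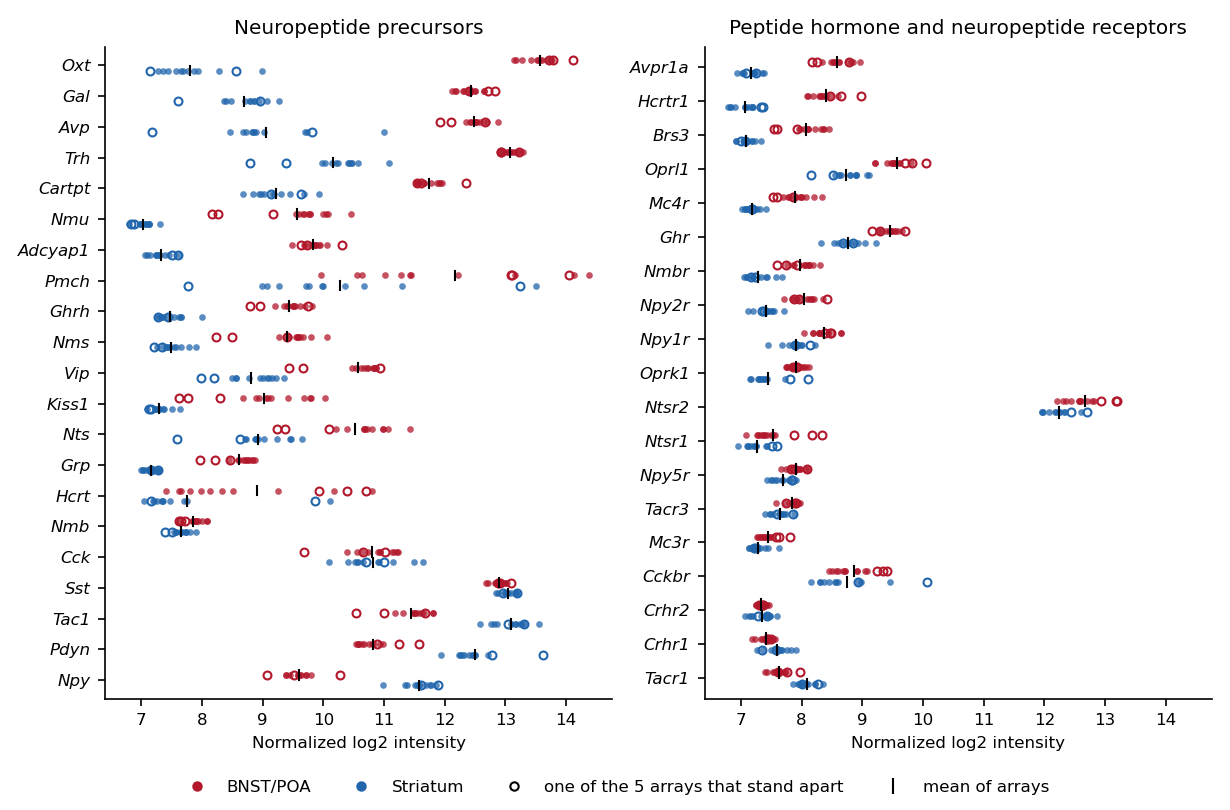
Normalized log2 intensity (horizontal axis) of the 21 measured neuropeptide precursors and 19 receptors, with a point for each of 14 BNST/POA arrays above 13 striatal arrays, open points for the 5 arrays that stand apart and a bar at the mean. Most precursors lie to the right in the BNST/POA, Npy, Pdyn and Tac1 to the left, and Pmch spreads from 9.96 to 14.38 within the BNST/POA.

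Sex steroid receptors and steroid enzymes were represented by 3 of 12 listed genes, so that the steroid receptors themselves are mostly not described here. Pgr, the progesterone receptor, was not called (0.11 ± 0.05), was called higher with a fixed (0.13) or random (0.11) replicate block, with normexp correction, with no group term, when all 57 arrays shared the spread and without any single one of 7 arrays, and was detected on 7 BNST/POA arrays and 1 striatal array. Greb1, an estrogen-induced gene in breast cells, was higher in the BNST/POA by 0.26 ± 0.05 and detected on 1 striatal array. Ncoa1, a coactivator of steroid receptors, was lower (-0.58 ± 0.14), a call that was lost with arrays centred on their medians.

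Transcription factors separated the regions in both directions. Of 24 listed for the hypothalamus, preoptic area and septum, 10 were measured, 8 of them higher and 0 lower in the BNST/POA (median 0.48, or 0.40 with Lhx9, undetected in the striatum, at its bound). Zic1, a zinc finger factor of the septum and preoptic area, was 4.41-fold higher (2.14 ± 0.16), with 10.25 to 11.71 (median 10.73) against 8.11 to 9.98 (median 8.51). Zic4 was higher by 1.48 ± 0.06 and detected on 2 striatal arrays, and Zic2 and Nr2f2 (COUP-TFII) were both higher by 0.56 ± 0.08. Zic2 was detected on 1 and Nr2f2 on 5 striatal arrays, and with normexp correction their differences were 1.41 and 1.35. Zic4, Zic2 and Lhx9 passed the detection filter only with the help of BNST/POA arrays. The direction of these genes is therefore no separate support for the list. Nkx2-1, which specifies the medial ganglionic eminence and the hypothalamus, was higher by 0.31 ± 0.09. Of 16 factors listed for the striatum, 12 were measured, 0 higher and 8 lower in the BNST/POA (median -1.21). Rarb lay at 7.82 to 8.13 (median 7.92) in the BNST/POA and at 10.89 to 11.58 (median 11.24) in the striatum, 9.32-fold lower (-3.22 ± 0.08, adjusted p = 5.17e-21), and its 3 probes gave the same call. Bcl11b (CTIP2, required for the maturation of medium spiny neurons) was 8.19-fold lower (-3.03 ± 0.24). Rxrg, a retinoid X receptor, was lower by more than 2 log2 units (-2.22 ± 0.09), as was Mef2c, a factor that regulates synapse number (-2.01 ± 0.10). Meis2 had a difference of -1.97 ± 0.09. Isl1, Six3, Ebf1 and Egr3 were not called, with differences between -0.12 and 0.22, and Isl1 and Six3 are members of both lists. Isl1 was, however, called higher without the 5 arrays (0.29), with array weights (0.26), with arrays centred on their medians (0.44) and without BNST/POA XX+T 6, BNST/POA XY 6, striatal XX+T 5 or striatal XY 3.

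Rarb and Rxrg also belong to the retinoid signalling list, of which 8 of 15 genes were measured, with 1 higher and 4 lower in the BNST/POA (median -0.50). Rxrb (-0.95 ± 0.06) and Crabp1, a cytosolic retinoic acid-binding protein (-0.90 ± 0.06), were the other members that were lower, both without overlap. Crabp1 was detected on 1 BNST/POA array and on all 13 striatal arrays. Aldh1a1, an enzyme of retinoic acid synthesis found in dopamine neurons, was higher by 0.39 ± 0.11.

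Medium spiny neuron markers gave the lowest median of all lists, -2.54 over 21 measured of 30 listed, with 0 higher and 20 lower in the BNST/POA. The arrays did not overlap for 17 of the 21. Beside the leading genes, Gng7 (a G protein gamma subunit coupled to striatal adenylyl cyclase) was lower (-2.91 ± 0.19), as were Pde10a and Pde1b, phosphodiesterases of cyclic nucleotides (-2.63 ± 0.12 and -2.54 ± 0.13). Drd2, the D2 dopamine receptor, lay at 7.55 to 8.19 (median 7.73) in the BNST/POA and at 9.41 to 11.16 (median 10.24) in the striatum, 5.74-fold lower. Gpr6, a receptor of striatopallidal neurons, was detected on 2 BNST/POA arrays (-1.68 ± 0.10). Rasgrp2, an activator of Rap1, was detected on none of them and was at least 1.56-fold lower. Scn4b, Gpr6 and Rasgrp2 passed the detection filter only with the help of striatal arrays. The direction of these genes is therefore no separate support for the list. Gnal, the olfactory and striatal stimulatory G protein subunit, had the smallest called difference (-0.11 ± 0.05) and was detected on 9 arrays of each region. Its call was lost without the 5 arrays, with arrays centred on their medians and without any single one of 10 arrays. Gpr149 was not called (-0.02 ± 0.05). The markers' summed intensity on the linear scale was 14532 to 21510 on the BNST/POA arrays and 88544 to 213183 on the striatal arrays. All but 1 of the 21 were detected on at least 1 BNST/POA array.

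Interneuron markers were divided. Of 13 listed, 8 were measured, 2 of them higher and 6 lower in the BNST/POA (median -0.67). Calb2 was higher, as was Th, the rate-limiting enzyme of catecholamine synthesis (3.25 ± 0.13 and 0.39 ± 0.09). Th was detected on 12 BNST/POA and 5 striatal arrays. The cholinergic genes Chat, choline acetyltransferase (-1.46 ± 0.09), and Slc5a7, the choline transporter (-1.03 ± 0.10), were lower without overlap. Slc18a3, the vesicular acetylcholine transporter, was lower by a smaller step near the detection limit (-0.31 ± 0.08). Pvalb, parvalbumin of fast-spiking interneurons, was 2.41-fold lower (-1.27 ± 0.18), with an overlap between 11.65 to 13.52 (median 12.92) in the BNST/POA and 12.37 to 14.68 (median 14.33) in the striatum.

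Transmitter genes differed in both directions. Of 9 genes of the GABA and glutamate phenotype, 6 were measured, with 2 higher and 4 lower in the BNST/POA (median -0.66). Slc17a6, the vesicular glutamate transporter VGLUT2 of hypothalamic and thalamic neurons, was 4.53-fold higher (2.18 ± 0.24), with 12.22 to 13.69 (median 12.61) against 9.67 to 12.10 (median 10.44). Slc17a7, the cortical transporter VGLUT1, was 3.81-fold lower (-1.93 ± 0.18), with 7.24 to 8.45 (median 7.35) in the BNST/POA and 8.84 to 10.84 (median 9.28) in the striatum. Slc17a8 (VGLUT3) was lower by about 1 log2 unit (-0.96 ± 0.07), and Gad1, the GABA-synthesizing enzyme, and Slc32a1, the vesicular GABA transporter, were lower too (-0.73 ± 0.09 and -0.59 ± 0.18). Slc6a11, the GABA transporter GAT-3 of astrocytes, was higher by 1.03 ± 0.21. Of 12 genes of monoamine synthesis and transport, 7 were measured, with 4 higher and 2 lower (median 0.39). Ddc, aromatic amino acid decarboxylase, was 2.75-fold higher (1.46 ± 0.09) and Hdc, the histamine-synthesizing enzyme, 2.30-fold (1.20 ± 0.14), both without overlap. Maob, monoamine oxidase B, was higher by 0.84 ± 0.11. Tph2 and Slc6a3, known from serotonin and dopamine neurons of the brainstem and midbrain, were lower (-0.79 ± 0.10 and -0.65 ± 0.10), with medians of 7.62 and 7.45 in the BNST/POA and of 8.51 and 8.14 in the striatum.

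Receptors and channels held members called in both directions. Their counts are to be read against 27.5% higher and 26.7% lower of all genes. Of 15 GABA-A receptor subunits 5 were measured, 3 higher and 1 lower in the BNST/POA (median 0.71). Gabrg1 was 3.63-fold higher (1.86 ± 0.14), and Gabra3 and Gabrb1 were higher by 0.84 ± 0.08 and 0.71 ± 0.27 (the Gabrb1 call was lost with arrays centred on their medians and without BNST/POA XX+T 6, striatal XX+T 4 or striatal XX+T 5), whereas Gabrd was 9.35-fold lower. Of 17 ionotropic glutamate receptor subunits 7 were measured, with 2 higher and 2 lower (median -0.11), which is near those shares. The kainate receptor subunit Grik1 was higher (1.07 ± 0.17) and Grik5 lower (-0.87 ± 0.10). The calls for the AMPA receptor subunits Gria1 (0.49 ± 0.19) and Gria2 (-0.34 ± 0.11) were not shared by their other probes. That of Gria2 was lost with arrays centred on their medians and with the fixed block, and that of Gria1 without any single one of 9 arrays and with no detection filter. Both measured metabotropic glutamate receptors of 7 listed, Grm7 and Grm8, were not called (0.14 ± 0.09 and 0.05 ± 0.06), whereas Grm7 was called higher with the fixed block (0.22, adjusted p = 0.019). Of 25 receptors of dopamine, acetylcholine, serotonin, histamine, noradrenaline and cannabinoids, 12 were measured, with 2 higher and 8 lower (median -0.61). Beside Drd1 and Drd2, Adra2c, an alpha-2 adrenergic receptor, was 3.68-fold lower (-1.88 ± 0.08) and Htr1d, a serotonin receptor, 3.22-fold (-1.69 ± 0.06). Htr1a, another serotonin receptor, and Chrm2, a muscarinic receptor, were higher (0.80 ± 0.07 and 0.70 ± 0.18). Htr1a was detected on 3 striatal arrays. Of 31 genes of voltage-gated and related potassium channels, 18 were measured, with 4 higher and 10 lower (median -0.33). Kcnj4, an inward rectifier, was 8.12-fold lower (-3.02 ± 0.11) and Kcnab1, a beta subunit, 6.55-fold (-2.71 ± 0.07). Kcnh3 was not detected in the BNST/POA and was at least 4.20-fold lower (adjusted p = 3.61e-20). Kcnip1, a subunit that regulates A-type current, was higher (1.17 ± 0.09), as was Kcnc4 (1.09 ± 0.21).

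Synaptic vesicle and postsynaptic density genes, 13 measured of 18, held 1 that was higher and 6 that were lower in the BNST/POA (median -0.27). The list's values depend on the setting: without the 5 arrays 8 were lower (median -0.43), Syn1 and Syt1 being added, and with the fixed block 3 were higher and 6 lower (median 0.02), Stx1a and Vamp2 being added. Nrgn, the calmodulin-binding protein neurogranin, was 6.70-fold lower (-2.74 ± 0.15) and Homer1, a postsynaptic scaffold, 6.05-fold (-2.60 ± 0.08), although only 1 of the 2 other Homer1 probes gave the same call. Syn2, a synapsin, was higher by 0.86 ± 0.19. Immediate early genes, which neurons transcribe within minutes of activity, held 0 that were higher and 9 that were lower in the BNST/POA among 10 measured of 15 (median -1.81). Egr1 ranged from 9.98 to 12.27 (median 11.00) in the BNST/POA and from 13.12 to 14.25 (median 13.48) in the striatum, 5.73-fold lower (-2.52 ± 0.19). Egr4 was 6.87-fold lower (-2.78 ± 0.19) and detected on 5 BNST/POA arrays, and Arc, an activity-regulated postsynaptic protein, was 4.87-fold lower (-2.29 ± 0.18). Npas4 was 4.05-fold lower (-2.02 ± 0.16), Fos had a smaller difference (-0.51 ± 0.12), and Egr3 was not called (-0.12 ± 0.05) but was without the 5 arrays and with either replicate block. The Fos call was lost with arrays centred on their medians (-0.33).

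Imprinted genes, which are transcribed from the allele of a single parent and of which many are expressed in the hypothalamus, were mostly higher in the BNST/POA. Of 23 listed, 15 were measured, with 11 higher and 2 lower (median 0.87). Dlk1, a Delta-like membrane protein, ranged from 8.71 to 10.61 (median 9.44) in the BNST/POA and from 7.06 to 7.69 (median 7.18) in the striatum, 4.83-fold higher (2.27 ± 0.17), and was detected on 3 striatal arrays. It passed the detection filter only with the help of BNST/POA arrays, so its direction is no separate support for the list. Nnat, neuronatin, was 4.58-fold higher (2.19 ± 0.09), with 11.98 to 12.61 against 9.73 to 10.47. Nap1l5 was 3.65-fold higher (1.87 ± 0.11) and Gnas, the stimulatory G protein alpha subunit, 2.62-fold (1.39 ± 0.12). Grb10, Usp29, Peg3 and Impact had differences between 0.87 and 1.30. Cdkn1c, an inhibitor of the cell cycle, and Mest were lower (-0.39 ± 0.11 and -0.30 ± 0.08), and Igf2 (0.20 ± 0.12) and Ube3a (-0.0033 ± 0.08) were not called. With arrays centred on their medians the Cdkn1c call was lost (-0.23) and Igf2 was called higher (0.43).

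Glial and vascular markers showed smaller differences. Of 20 oligodendrocyte and myelin markers 13 were measured, with 0 higher and 7 lower in the BNST/POA (median -0.34). Cnp, a myelin enzyme, and Cldn11, a tight junction protein of myelin, were lower (-0.68 ± 0.11 and -0.62 ± 0.13), whereas Mbp and Mobp were not called (-0.10 ± 0.04 and -0.05 ± 0.10). Without the 5 arrays 10 of the 13 were lower, Mbp among them (-0.14). The summed intensity of these 13 was 73272 to 118955 in the BNST/POA and 95628 to 120403 in the striatum. Of 13 microglia markers 10 were measured, with 0 higher and 8 lower (median -0.68). C1qb, a complement subunit, was 1.87-fold lower (10.80 to 11.25, median 11.03, against 11.40 to 12.19, median 11.99) and Tmem119, a marker of resident microglia, 1.66-fold (-0.73 ± 0.06), both without overlap. The 10 microglia markers summed to 5779 to 8591 in the BNST/POA and 9068 to 13080 in the striatum. Of 13 endothelial markers 9 were measured, with 0 higher and 5 lower (median -0.44), Esam, an adhesion molecule, by 1.96-fold, and a sum of 11029 to 14163 against 12299 to 17903. Without the 5 arrays 7 endothelial markers were lower, and with arrays centred on their medians 4 were. Of 13 astrocyte markers 12 were measured, with 5 higher and 2 lower (median 0.21). Agt, angiotensinogen, which astrocytes of the hypothalamus secrete, was 3.13-fold higher (10.17 to 11.54, median 10.61, against 8.47 to 9.50, median 9.13), and Gfap, the astrocytic intermediate filament, 2.16-fold (1.11 ± 0.11). The glutamate transporter Slc1a2 was lower (-0.57 ± 0.14), but neither it (-0.42) nor Aldh1l1, the other member that was lower, was called with arrays centred on their medians, and the fixed block left 1 lower. Without the 5 arrays 7 were higher. The 12 summed to 47194 to 73544 in the BNST/POA and 36432 to 63991 in the striatum. Mural, fibroblast and meningeal markers gave 1 higher and 2 lower of 8 measured (15 listed, median -0.08), Dcn by 0.43 ± 0.09 upwards and Acta2, smooth muscle actin, by 1.76-fold downwards.

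Markers of tissue at the edges of the dissections were also counted. Of 15 ependymal and choroid plexus markers 11 were measured, with 5 higher and 2 lower in the BNST/POA (median 0.20), and their summed intensity was 6214 to 13644 on BNST/POA arrays and 8913 to 35802 on striatal arrays. Ttr, the transthyretin of choroid plexus, was 5.58-fold lower (-2.48 ± 0.34), with 9.11 to 12.14 (median 11.01) in the BNST/POA and up to 14.82 (median 12.68) in the striatum, with an overlap between the regions. The striatal arrays XX 5, XX+T 3, XX+T 4, XY 4 and XY 5 lay between 14.19 and 14.82 for Ttr and the other 8 at 12.83 or below. Kcne2, another choroid plexus gene, was lower as well (-0.74 ± 0.24), whereas the ependymal genes Dynlrb2 and Enkur were higher (1.04 ± 0.13 and 0.77 ± 0.08). Enkur was detected on 3 striatal arrays. Of 12 cortical projection neuron markers 6 were measured, with 1 higher and 2 lower (median -0.05). Of the 6, Slc17a7 alone differed by at least 1 log2 unit, and Tbr1 and Neurod2 were not called (-0.0016 ± 0.12 and -0.09 ± 0.05). Of 7 thalamic markers 4 were measured, with 2 higher and 0 lower (median 0.75), Rgs16 by 1.37 ± 0.21 and Tcf7l2 by 1.20 ± 0.22. The part of these neighbouring tissues in the regional differences was not tested. The 4 measured genes of the sex chromosome check (Xist, Uty, Kdm5d and Eif2s3y, of 5 listed) gave 0 calls between the regions.

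**Figure D4:**
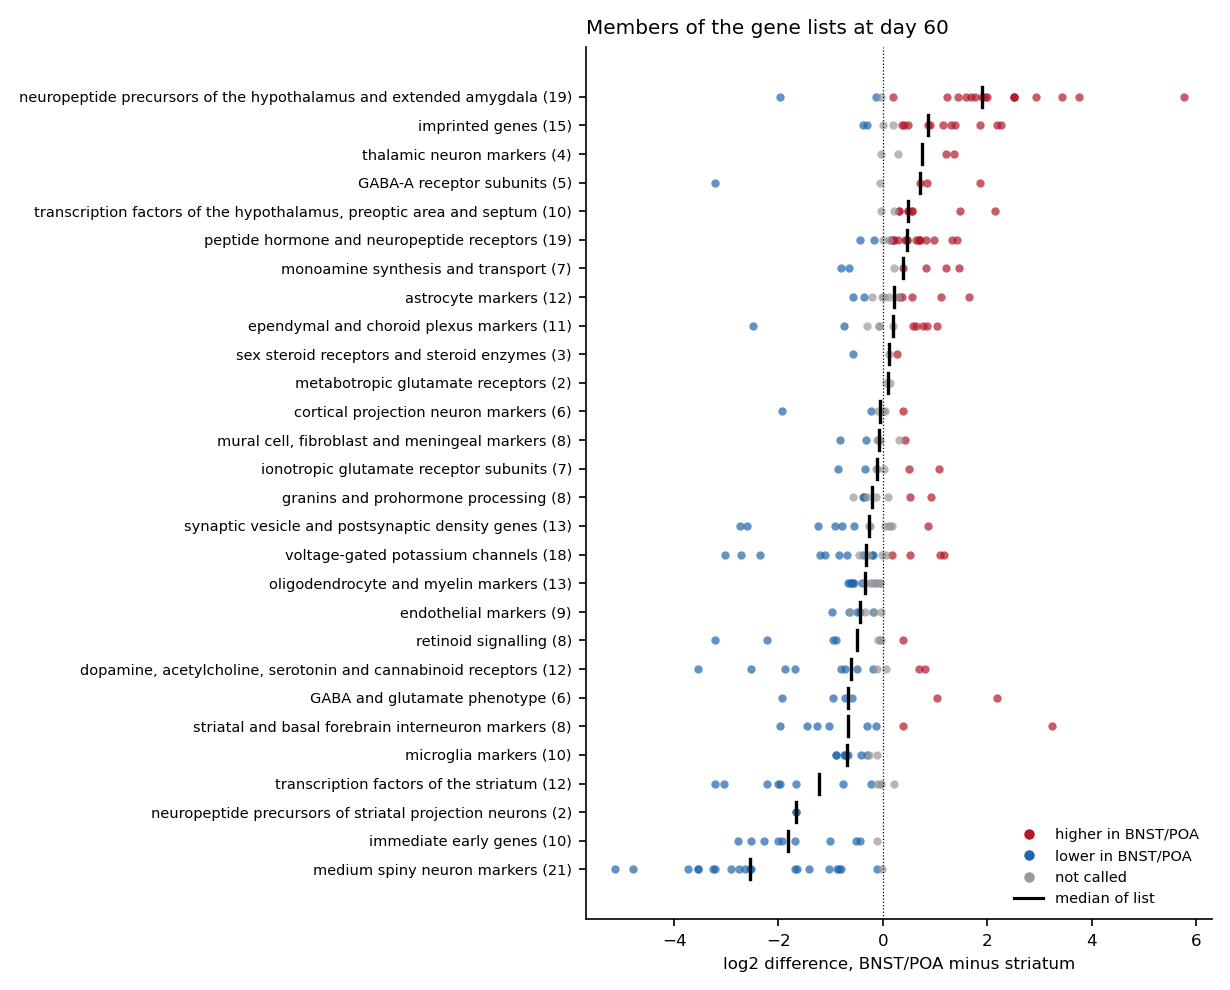
Each point is a gene placed by its log2 difference, BNST/POA minus striatum (horizontal axis), in rows for 28 gene lists with the number of measured members in parentheses, and a bar marks the median of a list. Rows run from the neuropeptide precursors at the top (median 1.90) to the medium spiny neuron markers at the bottom (median -2.54).

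The regional difference was next taken within each group, to ask whether sex or neonatal testosterone changed it. Of 13731 probes, 3132 (22.8%) were called within XX+T, 4388 (32.0%) within XY and 5091 (37.1%) within XX, and 2674 were called in all 3 groups, each in 1 direction. The groups differ in the number of arrays and in how many of the 5 arrays they hold, and these counts do not show that the groups differ. Without the 5 arrays the count within XY was 7103. All 741 probes with a called difference of at least 1 log2 unit kept their direction in every group. They were chosen on the mean of these same 3 differences, which makes a shared direction likely, so it is no separate evidence. The Oxt difference was 5.46 in XX+T, 6.02 in XY and 5.81 in XX, and the Scn4b difference was -5.35, -4.92 and -5.13 in the same groups. Over the 24 leading genes the largest gap between groups was that of Avp, with 3.19 in XX+T, 3.83 in XY and 3.28 in XX. The difference between groups was then tested directly. No probe was called for XX+T against XX (0 of 13731, 0.00%) or for XY against XX (0 of 13731, 0.00%) in limma, and 367 and 146 probes had an unadjusted p below 0.05, where 687 are expected by chance. The median standard error of these contrasts was 0.20 for XX+T and 0.19 for XY, against 0.08 for the regional difference itself, and the absence of calls does not show that the regional difference is equal in the groups.

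The regional difference at day 60 was compared with that at day 4 in a fit of all 57 arrays, in which the ages share 1 estimate of the spread. The day 4 mice were intact neonates, whereas the day 60 mice were gonadectomized adults with implants, so that age and hormone state cannot be told apart. Of 9560 genes 5750 differed between the regions at day 60 in that fit and 5381 at day 4, and 5189 at day 60 in the fit of the 27 arrays. Of the 3670 called at both ages in the fit of 57 arrays, 2999 had the same direction and 671 the opposite. Across genes, which are not independent replicates, the differences at the 2 ages correlated with r = 0.63. The change of the regional difference with age was called in 4484 genes (46.9%), 2221 with a more positive and 2263 with a more negative difference at day 60.

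Ranked by fitted values, the largest negative changes with age were in Pvalb, Scn4b, Pmch, Tesc and Slc17a6. Pvalb turned its direction, being lower in the BNST/POA at day 60 (-1.27) and higher at day 4 (2.58 ± 0.19), a change of -3.85 ± 0.28. At day 60 its median was 12.92 in the BNST/POA and 14.33 in the striatum, and at day 4 the medians were 10.38 and 7.62 in the same order. Scn4b differed by -5.13 at day 60 and by -1.47 ± 0.11 at day 4, and its median in the striatum was 12.85 at day 60 and 8.69 at day 4. At day 4, 4 of 15 BNST/POA arrays detected Scn4b, so its day 4 difference is set mostly against background. Tesc, tescalcin, a calcium-binding protein, differed by -3.02 at day 60 and -0.55 at day 4. Slc17a6 differed by 2.18 at day 60 and 4.58 at day 4, with medians in the striatum of 10.44 and 8.98. Pmch differed by 1.99 at day 60. No striatal array of day 4 detected it, so that at day 4 it was at least 20.2-fold higher in the BNST/POA, a log2 difference of 4.33 or more. The largest positive changes were in Sytl4, Cxcl14, Oxt, Igfbpl1 and Nectin3. Sytl4 had BNST/POA medians of 10.78 at day 60 and 7.38 at day 4, where 14 of 15 arrays detected it, against 1 of 13 striatal arrays at day 60 and 0 of 15 at day 4. Its fitted differences are therefore set against background at both ages, and at day 4 the log2 difference was at least 0.13. Oxt had a BNST/POA median of 13.58 at day 60 and 10.49 at day 4, and was detected on 1 of 15 striatal arrays at day 4. Cxcl14, a chemokine, differed by -0.18 at day 60, a call that was lost with arrays centred on their medians, and by -3.30 ± 0.06 at day 4. Igfbpl1, a gene of immature neurons, was lower in the BNST/POA at day 4 (-2.25 ± 0.08). At day 60 it was detected on 2 BNST/POA and 3 striatal arrays, so that both regions were mostly at background there. Nectin3, a cell adhesion molecule, was higher by 1.03 at day 60 and lower at day 4 (-1.15 ± 0.06), and 1 of its 2 other probes gave the same day 60 call. The largest limma adjusted p of these 10 changes was that of Pmch (7.25e-05).

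**Figure D5:**
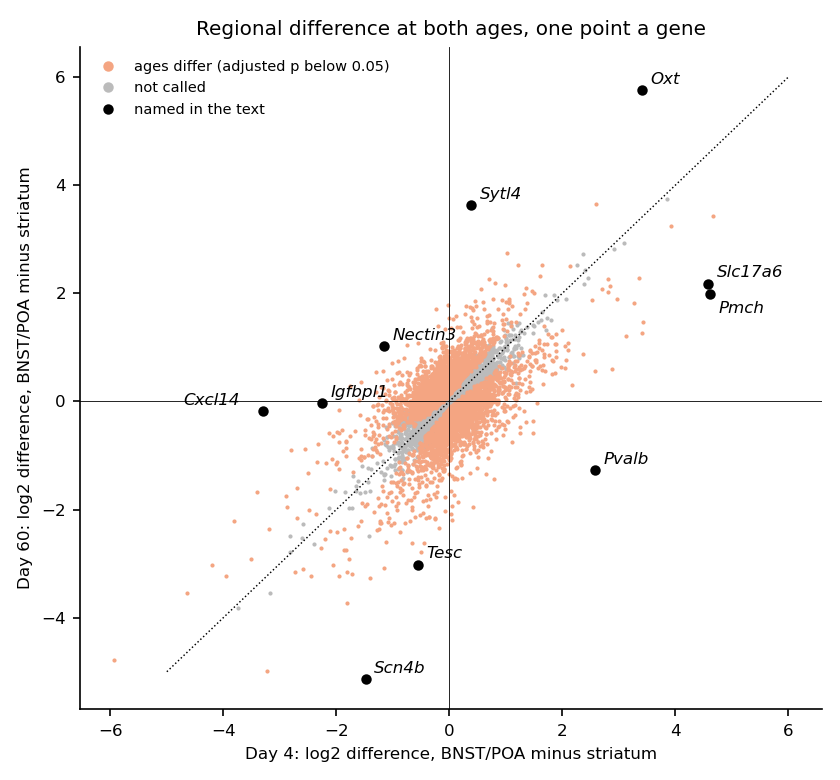
Each point is 1 of 9560 genes, with the log2 difference, BNST/POA minus striatum, at day 60 on the vertical axis and at day 4 on the horizontal axis, orange where limma called a difference between the ages and black for the 10 named genes. Points on the dotted line have the same regional difference at both ages, Sytl4 and Oxt lie above it and Pvalb and Scn4b below it.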

How the data were processed

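The 27 day 60 arrays analysed here are Illumina MouseRef-8 v1.1 BeadChips. The authors removed 3 outlier arrays before deposit and scanned the rest on either of a pair of readers. Deposited by the authors were, first, the intensity of each probe averaged over its beads and not yet normalized. The detection p-value deposited beside each intensity compares it with negative control beads. The log2 values deposited by the authors separately are quantile-normalized over 57 arrays, and repeating that step here matched them within 5e-09. Bead reading software and build are not given in the sources used here. Of the columns of per-array values, 114 were used and 114 were not used.

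Log2 intensities of 25697 probes were quantile-normalized over 57 arrays (limma 3.58.1, R 4.3.3). The 13731 probes detected (p below 0.05) on at least 20 arrays were kept, 12944 of them with 1 gene name and 787 unnamed, and the probe with the highest mean stands for each of 9560 genes. Linear models with moderated statistics were fitted over 6 group means of the day 60 arrays, or over all 12 groups for age, with Benjamini-Hochberg adjustment over all probes. SE is limma's. A probe detected on no array of a region has only a bound there, against the higher of its own signal and the lowest detected signal of each array.

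The members and the 29 gene lists (456 symbols, of which 269 were measured and 15 are in more than 1 list) were chosen with earlier results of these data known. Named genes are the 12 largest called differences in each direction without overlap, the 4 largest called members in each direction of each list, and the 5 largest called changes with age in each direction, and other list members are named with their values. Alternatives were other scalings and filters, leaving out arrays, array weights and blocks on the pool number. The fit was tested on simulated data. Array number limits the precision.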

Additional observations from a re-analysis of the deposited data

Results flagged for a closer look

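In groups of 4 or 5 arrays, a single array was set apart from the rest of its group when its gap to the nearest other array took up more of the group's range than Dixon's criterion allows. Of 156 groups tested over 26 results, 12 held such an array, where chance gives 7.8, and 4 of the 12 concern the arrays that stand apart in the second principal component. Among those 4, Calb2 had a log2 intensity of 13.44 in BNST/POA XX+T 6 (12.89 to 12.93 on the other 3) and of 13.69 in BNST/POA XY 6 (12.48 to 12.76 on the other 4). Arpp21 stood at 10.36 in BNST/POA XY 6 (11.18 to 11.46 on the others), and the interquartile range of raw log2 intensities of that array was 2.10 (1.22 to 1.46 on the others).

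The other 8 lay within the ranges that separate the regions. In BNST/POA XX arrays, Sytl4 was low in pool 2 (10.40, with 10.72 to 10.83 on the others), Scn4b was low in pool 1 (7.45, with 7.72 to 7.81) and Rarb was high in pool 5 (8.004, with 7.88 to 7.91). In BNST/POA XY 5, Trh was at 13.14 (12.93 to 12.96 on the others) and Cartpt at 11.66 (11.54 to 11.56). In the striatum, Itpka was low in XY 5 (12.21, with 12.52 to 12.56 on the others) and Actn2 in XX 2 (10.23, with 10.57 to 10.68). Arpp21 was at 14.68 in striatal XY 3, against 14.65 on each of the other 3 XY arrays. Quantile normalization gives the same value to the same rank on every array, and this flag rests on that tie.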

How the results depend on the processing

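Of 5437 combinations of 136 named genes and alternatives, 5374 kept their direction and call, and the 24 leading genes did so in all. Most of the 136 were chosen as the largest called differences, which makes a kept call likely. Among them, the call was lost in at least 1 alternative for 15 genes (Aldh1l1, Cdkn1c, Chga, Crhr1, Cxcl14, Fezf2, Gabrb1, Gria1, Gria2, Kcna6, Ncoa1, Rgs5, Slc1a2, Slc2a1 and Sst). List members such as Nmb, Gnal, Fos, Pgr, Isl1, Egr3 and Mbp are not among the 136, and their calls changed in some alternatives. The log2 difference of Igfbpl1, not called at day 60, changed sign to 0.0040 without the 5 arrays, 0.018 without the striatal library labelled XX+T 3 and 0.041 with a fixed block, and lay between -0.0621 and 0.0177 with each array left out. Centring arrays on their medians gave 2118 probes lower in the BNST/POA in place of 3371, and 69.5% of calls were higher in place of 54.2%. Normexp background correction gave 1684 probes with differences of at least 1 log2 unit in place of 741. Within XY, 7103 probes were called without the 5 arrays and 7423 with array weights, in place of 4388. The causes were not tested.

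With each array left out in turn, the regional calls numbered 7085 to 7850 (3841 to 4239 higher, 3227 to 3611 lower, 717 to 784 by at least 1 log2 unit), those within XX+T 2469 to 3774, within XY 3589 to 5294 and within XX 4454 to 5692, and the age calls 6229 to 7033 probes. The interactions gave 0 calls in each alternative. The labels do not say that equal pool numbers mark shared animals. After removal of group means, same-numbered pairs of arrays correlated between -0.34 and 0.68, 6 of 12 above 0.1, and 5 of 12 BNST/POA arrays correlated best with the striatal array of their own number among those of their group. With the replicate number as a fixed block 7650 probes were called (4102 higher, 3548 lower), and 7671 as a random block. The arrays' number and signal near the detection limit restrict what can be seen of weakly expressed genes.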
